A study of Rattus norvegicus with 12 samples.

Results

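Cytokines, chemokines, the tumor necrosis factor (TNF) superfamily, and the NF-kB module were examined in adult rat ventricular myocytes (ARVMs) that overexpressed the nuclear receptor NR4A2. The genes were chosen by symbol alone, as names that begin with Ccl, Ccr, Cxcl, Cxcr, Il, or Csf and a number, with Cx3c, Tnf, Lif, Nfkb, or Ikbk, or that read Rela, with 1 gene name left out. This gave 174 of the 17301 gene names in the data. A total of 70 were above 0 in all 12 samples and could be tested, and 104 were listed at 0 in 1 or more samples.

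ARVMs of adult male Sprague Dawley rats were transduced with Ad-h-NR4A2, an adenovirus with full-length human NR4A2 cDNA under the CMV promoter, or with Ad-GFP, which carries enhanced green fluorescent protein, each at 50 MOI. RNA was collected 48 h later, after 6 independent experiments on cells of different rats, so that each group holds 6 samples, numbered 24 to 29 in both groups. All samples therefore carried an adenovirus, the promoter is not specific to myocytes, and nontransduced cells are not analysed here. Values are FPKM as calculated by the authors, that is, fragments on a transcript scaled to its length and to the mapped fragments of the sample.

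Chemokines are small secreted proteins that attract leukocytes through G protein-coupled receptors, whereas interleukins and TNF ligands act through receptor chains that recruit kinases or adaptors. Receptors of the interleukin-6 family share the signal transducer Il6st (glycoprotein 130) and activate STAT3, a pathway long studied in cardiac hypertrophy and survival. Many receptors of the other families free NF-kB dimers from their IkB inhibitors through the IKK kinases, and NF-kB in turn drives the transcription of several chemokines. NR4A receptors bind DNA as monomers at the NBRE element and are also known to restrain NF-kB target genes in other cell types.

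The libraries held 18800000 to 28000000 fragments in Ad-GFP samples and 21500000 to 27300000 in Ad-h-NR4A2 samples, as recovered from the steps between low FPKM values. Nr4a2 itself was 0.626 to 1.40 FPKM in Ad-GFP and 445 to 592 FPKM in Ad-h-NR4A2 samples, as the labels state, although a human transcript is counted only as far as it aligns to the rat gene. Summed cardiomyocyte markers were 18800 to 24300 FPKM in Ad-GFP and 16400 to 20100 FPKM in Ad-h-NR4A2 samples, and 3 of 7 (Ryr2, Pln, and Myh7) were downregulated, and the part of this in the values below was not tested. Summed macrophage and other leukocyte markers were 1.35 to 6.66 and 1.58 to 9.78 FPKM. Of those 17 genes, 12 were at 0 in some samples and the neutrophil genes S100a8 and S100a9 in all, and Cd14 alone of 5 tested was upregulated. Summed endothelial markers had medians of 21.7 and 23.0 FPKM with none of 7 called, fibroblast markers 17.4 and 14.4 FPKM with Col3a1 downregulated, and smooth muscle markers 13.2 and 13.2 FPKM with Myh11 downregulated, and the part of these was not tested. In such bulk samples, fewer cells of a type and less RNA per cell cannot be told apart.

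Most genes of the set were scarce in these cells. The mean over the 12 samples was below 1 FPKM for 130 genes, 26 of which could be tested, and at least 10 FPKM for 22 genes. The highest means were those of Cxcl11 (269 FPKM), Il6st (73.2 FPKM), the TWEAK receptor Tnfrsf12a (59.1 FPKM), and Il11ra1 (54.0 FPKM). Receptors and NF-kB components made up most of the abundant transcripts, whereas 13 of 38 interleukins and antagonists, Lif included, were listed at 0 in every sample, among 27 such genes in all.

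Of the 70 genes tested, 14 were differentially expressed, 10 upregulated and 4 downregulated in Ad-h-NR4A2 samples. Differential expression meant a limma adjusted p below 0.05 (Benjamini-Hochberg, over all 10950 genes tested) together with group means that differed by a factor of 1.5 or more. The share was 20.0%, beside 15.2% of all genes tested (7.94% upregulated and 7.24% downregulated). The median log2 fold change of FPKM + 0.1 was 0.01 for the set and -0.02 for all genes. The values of the 6 samples of one group did not overlap those of the other for 11 of the 70 genes, compared with 21.5% of all genes. Without the limit on the ratio, 24 genes of the set had an adjusted p below 0.05, 14 higher and 10 lower, beside 40.9% of all genes (19.3% higher and 21.7% lower).

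**Figure D1:**
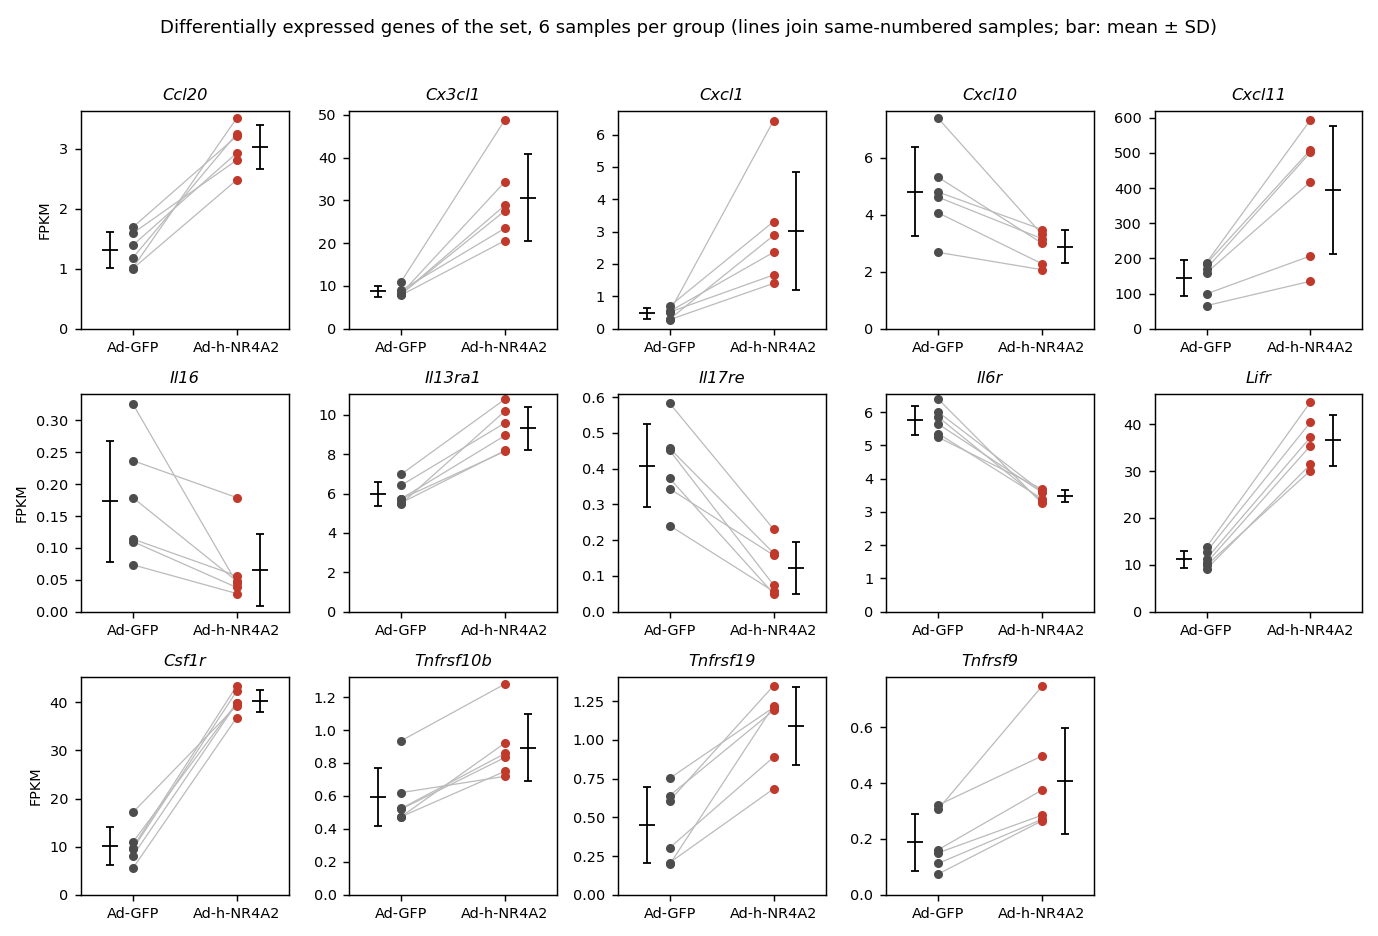
FPKM (linear axis from 0) of the 14 differentially expressed genes in 6 Ad-GFP (gray) and 6 Ad-h-NR4A2 (red) samples; lines join same-numbered samples, and bars give the mean ± SD. Lifr, Csf1r, Cx3cl1, Il6r, Ccl20, Cxcl1, Il13ra1, and Il17re have groups that do not overlap, and lines of every gene point one way in all 6 pairs.

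Chemokine ligands changed in both directions. Of 33 ligands, 12 could be tested and 5 were differentially expressed (41.7%, beside 15.2% of all genes tested). Of these, Cx3cl1, Ccl20, Cxcl1, and Cxcl11 were upregulated and Cxcl10 was downregulated. Cx3cl1, or fractalkine, is a membrane-anchored chemokine that tethers leukocytes (chr19:10638466-10647951, coordinates in Rn5 as in the files). It was 7.84, 8.14, and 11.0 FPKM (lowest, median, highest) in Ad-GFP and 20.6, 28.3, and 48.9 FPKM in Ad-h-NR4A2 samples. Number 24 was the highest sample of both groups, and the groups did not overlap. The log2 fold change was 1.76 (SE 0.17, limma adjusted p = 3.07e-06), and the ratio within same-numbered pairs ranged from 2.62 to 4.44.

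Cxcl1 (chr14:18653032-18654811) encodes a neutrophil attractant that acts through Cxcr2. It was 0.277, 0.518, and 0.694 FPKM in Ad-GFP samples and 1.40, 2.62, and 6.43 FPKM in Ad-h-NR4A2 samples, with a log2 fold change of 2.31 (SE 0.32, limma adjusted p = 6.07e-05). These values correspond to 5 to 11 fragments in the Ad-GFP and 25 to 128 in the Ad-h-NR4A2 libraries. The groups did not overlap, and the rise in pairs varied from 3.25 to 12.3 times, highest for number 28. Its neighbor Cxcl2, which shares that receptor, was listed at 0 in 4 of 12 samples and reached only 0.165 FPKM. It was above 0 in 3 Ad-GFP and 5 Ad-h-NR4A2 samples (3 and 11 fragments in sum, unadjusted exact permutation p = 0.0498).

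Ccl20 (chr9:88662802-88665379), which attracts lymphocytes and dendritic cells through Ccr6, was 1.00, 1.29, and 1.69 FPKM in Ad-GFP and 2.48, 3.07, and 3.51 FPKM in Ad-h-NR4A2 samples. All Ad-h-NR4A2 samples lay above all Ad-GFP samples, and the log2 fold change was 1.17 (SE 0.14, limma adjusted p = 1.81e-05). The counts behind it were small, 12 to 30 and 34 to 61 fragments.

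Cxcl10 and Cxcl11 encode interferon-inducible ligands of the same receptor, Cxcr3, and lie next to each other. Cxcl11 was 65.5, 165, and 188 FPKM in Ad-GFP and 135, 460, and 594 FPKM in Ad-h-NR4A2 samples. Samples 24 and 28 were the lowest of both groups, and the groups overlapped only through Ad-h-NR4A2 sample 24, while each pair rose by 2.06 to 3.15 times. Summed endothelial markers were also lowest in samples 24 and 28 of both groups. They were 12.1 and 10.1 FPKM in Ad-GFP and 12.6 and 9.93 FPKM in Ad-h-NR4A2 samples. Cardiomyocyte markers were lowest in samples 24 and 28 in Ad-GFP only (20600 and 18800 FPKM). Fibroblast markers (9.79 and 5.84 FPKM) and leukocyte markers (2.60 and 1.58 FPKM) were so in Ad-h-NR4A2 only. The part of any of these in the level of Cxcl11 was not tested. The log2 fold change was 1.36 (SE 0.37, limma adjusted p = 0.0103, and 9.79e-07 with same-numbered samples paired in a replicate block).

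Cxcl10 moved the other way, with 2.68, 4.71, and 7.39 FPKM in Ad-GFP and 2.07, 3.08, and 3.48 FPKM in Ad-h-NR4A2 samples. It was lower in all 6 pairs, the groups overlapped, and the log2 fold change was -0.68 (SE 0.20, limma adjusted p = 0.0165). Without Ad-GFP sample 28, which had the highest value, Cxcl10 was no longer called. The ratio of Cxcl11 to Cxcl10 within a sample was 12.3, 37.4, and 70.2 in Ad-GFP and 45.1, 153, and 286 in Ad-h-NR4A2 samples.

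The levels of Cxcl11 and Cxcl10 need care, since both are placed with Art3, an ADP-ribosyltransferase gene, in 1 locus (chr14:17059130-17141523). In RefSeq, both chemokine genes lie within the span of Art3 on the opposite strand. The library kit marks strand, but whether Cufflinks was run with that setting is not given in the sources used here. Without it, fragments from stretches where exons of both strands overlap cannot be told apart. Such overlap of exons was not examined. Art3 was 206, 282, and 316 FPKM in Ad-GFP and 237, 359, and 388 FPKM in Ad-h-NR4A2 samples, again lowest in samples 28 and 24 (log2 fold change 0.27, unpaired limma adjusted p = 0.136). Art3 too rose in each of pairs 24 to 29, from 238 to 261, 304 to 388, 285 to 364, 316 to 371, 206 to 237, and 278 to 354 FPKM. Cxcl11 per Art3 was 0.275 to 0.607 in Ad-GFP and 0.518 to 1.60 in Ad-h-NR4A2 samples. Cxcl10 per Art3 was 0.00848 to 0.0358 in Ad-GFP and 0.0056 to 0.014 in Ad-h-NR4A2 samples. The part of Art3 in the Cxcl11 and Cxcl10 values, and in their ratio, was not tested.

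The sequences before the start of these genes are shown because 4 of the 5 differentially expressed ligands, all but Cx3cl1, have a match to the NF-kB element in the window of 250 bases before to 50 bases after the annotated start. The letters are from RefSeq (GRCr8, not the build of the files), 5′ to 3′ on the strand of the gene and up to the base before the start, and capitals mark matches on either strand, with overlapping matches run together.
Cxcl11 (chr14:15973478-15973727, plus strand): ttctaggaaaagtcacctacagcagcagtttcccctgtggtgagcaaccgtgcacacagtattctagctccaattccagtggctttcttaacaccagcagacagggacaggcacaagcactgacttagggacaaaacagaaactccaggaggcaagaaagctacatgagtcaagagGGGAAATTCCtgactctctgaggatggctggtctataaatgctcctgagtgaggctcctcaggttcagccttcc
Cxcl10 (chr14:15988816-15989065, plus strand): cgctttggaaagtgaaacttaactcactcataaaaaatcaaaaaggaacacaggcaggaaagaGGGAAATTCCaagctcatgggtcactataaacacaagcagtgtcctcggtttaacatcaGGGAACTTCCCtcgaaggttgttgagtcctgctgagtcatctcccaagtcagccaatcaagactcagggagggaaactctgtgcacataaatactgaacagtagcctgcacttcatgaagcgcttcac
Cxcl1 (chr14:17479322-17479571, minus strand): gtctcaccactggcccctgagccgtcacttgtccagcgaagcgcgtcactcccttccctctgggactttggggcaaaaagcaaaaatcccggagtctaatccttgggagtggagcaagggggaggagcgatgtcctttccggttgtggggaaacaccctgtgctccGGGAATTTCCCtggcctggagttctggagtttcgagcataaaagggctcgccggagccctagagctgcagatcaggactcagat
Ccl20 (chr9:91836909-91837158, plus strand): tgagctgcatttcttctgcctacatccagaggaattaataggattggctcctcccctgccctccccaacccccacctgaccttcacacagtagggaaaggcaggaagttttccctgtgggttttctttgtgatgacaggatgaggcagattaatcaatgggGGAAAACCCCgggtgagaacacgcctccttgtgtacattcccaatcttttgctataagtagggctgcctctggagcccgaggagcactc

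The match of Cxcl11, GGGAAATTCC, began at position -74 from the start, and the same 10 letters were 1 of the 3 matches of Cxcl10, although the former was upregulated and the latter downregulated. Ccl20 carried its match, GGAAAACCCC when read on the strand of the gene, at position -89. A match was present in 2087 of 27457 RefSeq windows (7.60%), in 26 of the 130 genes of the set with a window (20.0%), in 4 of 12 differentially expressed genes with a window, and in 12 of 39 tested genes that were not called (30.8%). The NBRE element, AAAGGTCA on either strand, was in no window of these 12 genes, in 4 of the 130 windows of the set (3.08%), and in 1.29% of all windows. Matches describe letters only, and binding was not measured.

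The other tested ligands did not pass the test. Ccl2, the main monocyte attractant, was 3.08, 12.9, and 27 FPKM in Ad-GFP and 4.71, 9.64, and 13.8 FPKM in Ad-h-NR4A2 samples, so that the log2 fold change was -0.32 with a 95% confidence interval of -1.20 to 0.56. Cxcl12, which acts through Cxcr4, was 0.176 to 0.725 and 0.165 to 0.682 FPKM. Ccl5, a T cell attractant, was at 0 in 4 samples of each group and reached 0.351 FPKM in Ad-GFP sample 29.

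Most chemokine receptors were low or listed at 0. Of 16 receptors, 4 were above 0 in all samples. None of these 4 was differentially expressed by limma, beside 15.2% of all genes. However, 1 (Ccr10, 0.186 ± 0.0656 and 0.514 ± 0.393 FPKM, SD, n = 6) had an unadjusted p below 0.05. With same-numbered samples paired in a replicate block Ccr10 was upregulated (ratio of means 2.76, limma adjusted p = 0.0272). Cxcr4, the receptor of Cxcl12, was the most abundant, at 0.558 to 3.80 FPKM in Ad-GFP and 0.877 to 3.43 FPKM in Ad-h-NR4A2 samples. The receptors of the changed ligands were chosen for mention by that pairing: Cxcr3, for Cxcl10 and Cxcl11, was 0.0907 to 0.380 FPKM in Ad-GFP and 0.122 to 0.521 FPKM in Ad-h-NR4A2 samples. Cx3cr1, for Cx3cl1, was listed above 0 in 1 sample of each group, at 0.0315 and 0.0354 FPKM. Ccr6, for Ccl20, was above 0 in 1 sample (0.0295 FPKM) and Cxcr2, for Cxcl1, in 2 samples (0.0317 and 0.0308 FPKM). A listed 0 can also be a failed estimate.

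Receptor chains of the interleukin-6 family changed in opposite directions. Lifr, the signaling chain for leukemia inhibitory factor and cardiotrophin (chr2:76177780-76227874), had the smallest adjusted p of the 70 genes tested. It was 9.12, 10.8, and 13.8 FPKM in Ad-GFP and 30.1, 36.3, and 44.7 FPKM in Ad-h-NR4A2 samples. The groups did not overlap, each pair rose by 3.05 to 3.44 times, and the log2 fold change was 1.70 (SE 0.12, limma adjusted p = 1.28e-07).

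Il6r, the ligand-binding chain for interleukin 6 (chr2:208629066-208677779), was downregulated. It was 5.25, 5.76, and 6.40 FPKM in Ad-GFP and 3.26, 3.49, and 3.69 FPKM in Ad-h-NR4A2 samples, with no overlap and a log2 fold change of -0.71 (SE 0.07, limma adjusted p = 3.35e-06). Replicates were tight, with an SD of 0.426 and 0.172 FPKM.

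Il6st, the chain that Lifr and Il6r both need, stayed under the limit on the ratio. Its FPKM was 73.0, 85.7, and 107 in Ad-GFP and 48.6, 54.7, and 80.0 in Ad-h-NR4A2 samples, lower in all 6 pairs (ratio of means 0.684, log2 fold change -0.56, limma adjusted p = 0.00467). It passed the limit after quantile normalization and without Ad-GFP sample 27 or 29 or Ad-h-NR4A2 sample 24 or 28. Il11ra1, which binds interleukin 11, was likewise lower in each pair, 49.6 to 73.1 compared with 39.9 to 59.0 FPKM (log2 fold change -0.36, limma adjusted p = 0.0193, ratio of means 0.778). It shares its locus with Ccl27. The ratio of Lifr to Il6st in a sample was 0.0850, 0.127, and 0.189 in Ad-GFP and 0.392, 0.683, and 0.876 in Ad-h-NR4A2 samples, and the groups did not overlap.

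**Figure D2:**
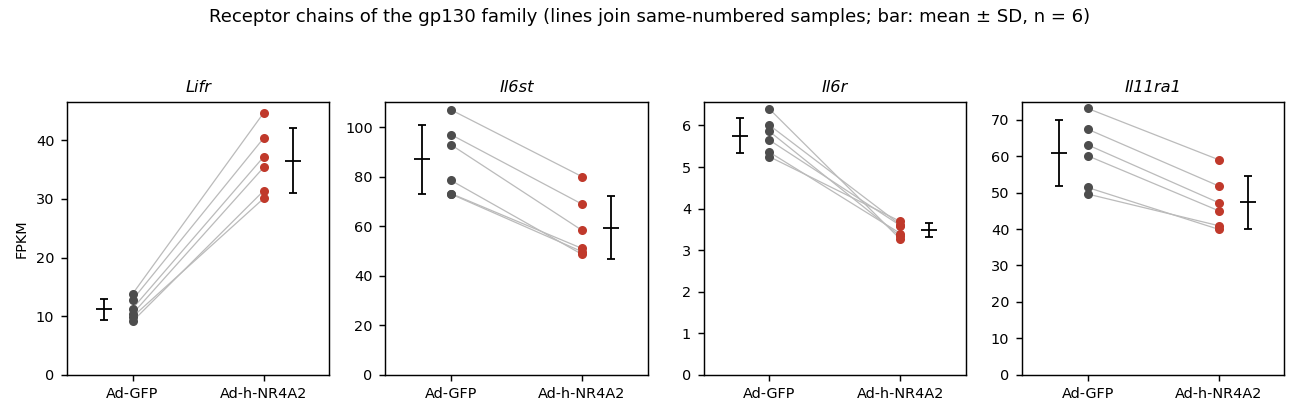
FPKM (linear axis from 0) of 4 receptor chains of the interleukin-6 family in 6 Ad-GFP (gray) and 6 Ad-h-NR4A2 (red) samples; lines join same-numbered samples, and bars give the mean ± SD. Lifr is higher in all 6 pairs (9.12 to 13.8 against 30.1 to 44.7 FPKM), whereas Il6st, Il6r, and Il11ra1 are lower in all 6.

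Lif and Il6, ligands of these receptors, were scarce. Lif was 0.120 to 0.410 FPKM in Ad-GFP and 0.0814 to 0.516 FPKM in Ad-h-NR4A2 samples (log2 fold change -0.07, 95% confidence interval -0.76 to 0.63). Il6 was at 0 in Ad-GFP sample 26 and 0.0514 to 0.363 FPKM in the other samples of both groups. Of 26 tested genes on a list of the JAK-STAT arm, which are no members of the set, 4 were differentially expressed. The share was 15.4%, beside 15.2% of all genes. Without the limit on the ratio, 13 had an adjusted p below 0.05, 3 higher and 10 lower, beside 40.9% of all genes. The lower ones included the kinases Jak1, Jak2, and Tyk2 (ratios of means 0.793, 0.790, and 0.750), named after their values were seen. Stat3, the transcription factor downstream, was 106 to 125 FPKM in Ad-GFP and 181 to 218 FPKM in Ad-h-NR4A2 samples (log2 fold change 0.79, limma adjusted p = 1.29e-07). The cytokine gene Cntf, whose product also acts through Lifr and Il6st, was 7.47 ± 1.37 in Ad-GFP and 5.51 ± 0.633 FPKM in Ad-h-NR4A2 samples (SD, n = 6) and stayed within the limit on the ratio (ratio of means 0.738, limma adjusted p = 0.0108). Clcf1, whose product also signals through Lifr and Il6st, went from 0.197 ± 0.114 to 1.26 ± 0.351 FPKM (SD, n = 6). The inhibitors Socs6 (57.3 ± 7.64 to 26.5 ± 4.02 FPKM) and Socs1 (0.586 ± 0.166 to 0.303 ± 0.0801 FPKM) were downregulated, and Socs3 did not pass the test (log2 fold change 0.18, limma adjusted p = 0.420).

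Among the remaining interleukin receptors, Il13ra1 was upregulated and Il17re was downregulated. With Lifr and Il6r this makes 4 of 15 tested (26.7%, beside 15.2% of all genes). Il13ra1 (chrX:122873725-122933122) pairs with Il4r to bind interleukins 4 and 13. It was 5.48, 5.73, and 6.98 FPKM in Ad-GFP and 8.15, 9.27, and 10.8 FPKM in Ad-h-NR4A2 samples, with no overlap (log2 fold change 0.63, SE 0.09, limma adjusted p = 7.90e-05). Neither Il4 nor Il13 was listed above 0 in any sample. Il4r was higher in all 6 pairs, 12.5 to 20.7 compared with 15.1 to 27.8 FPKM, at a ratio of 1.37 that is under the limit (limma adjusted p = 0.0303).

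Il17re (chr4:208711257-208723906), which together with Il17ra binds interleukin 17C, was 0.241, 0.412, and 0.583 FPKM in Ad-GFP and 0.0504, 0.116, and 0.231 FPKM in Ad-h-NR4A2 samples. The groups did not overlap, though they were separated by little, and the fragments numbered 13 to 40 and 3 to 13 per sample (log2 fold change -1.22, SE 0.22, limma adjusted p = 0.000684). Its partner Il17ra was higher without overlap, 3.14 to 4.07 compared with 4.31 to 5.36 FPKM, at a ratio of 1.35 (limma adjusted p = 0.00109). Il10rb had a ratio of 1.13 (limma adjusted p = 0.0124). Il4r, Il17ra, and Il10rb were named after their values were seen. Il1r1, the interleukin 1 receptor, was 0.478 to 1.64 FPKM in Ad-GFP and 0.505 to 1.68 FPKM in Ad-h-NR4A2 samples (log2 fold change 0.11, 95% confidence interval -0.58 to 0.81).

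Interleukins themselves were low. Of 38 interleukins, antagonists, and Lif, 8 were tested and Il16 alone was differentially expressed (12.5%, beside 15.2% of all genes). Il16 (chr1:146710947-146799931) encodes a precursor from which a T cell attractant is cut. It was 0.0736, 0.146, and 0.326 FPKM in Ad-GFP and 0.0285, 0.0466, and 0.179 FPKM in Ad-h-NR4A2 samples, lower in all 6 pairs but with overlap (log2 fold change -0.71, SE 0.24, limma adjusted p = 0.0319). The call was lost with a pseudocount of 1 and on leaving out any of 8 samples (Ad-GFP 24, 26, or 29, or Ad-h-NR4A2 24, 25, 27, 28, or 29), with adjusted p between 0.00742 and 0.0698 over all alternatives.

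The classical proinflammatory interleukins were at the limit of detection in both groups. Il1a was above 0 in Ad-GFP samples 27 and 29 only, at 1 fragment each. Il1b was listed at 0 in 2 Ad-GFP and 3 Ad-h-NR4A2 samples and reached 0.0929 and 0.120 FPKM. Il18 was at 0 in 3 Ad-GFP samples and 1 Ad-h-NR4A2 sample, and its highest values were 0.196 and 0.338 FPKM. The alarmin Il33 was present in all samples, 0.222 to 0.630 FPKM in Ad-GFP and 0.413 to 0.788 FPKM in Ad-h-NR4A2, higher in 6 of 6 pairs, but it did not pass the test (log2 fold change 0.34, limma adjusted p = 0.207).

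Csf1r showed the second-largest fold change of the 70 genes tested, after Cxcl1. It encodes the receptor tyrosine kinase for Csf1 and Il34 (chr18:55662900-55689297) and is best known from macrophages. It was 5.48, 9.65, and 17.1 FPKM in Ad-GFP and 36.8, 39.9, and 43.4 FPKM in Ad-h-NR4A2 samples, with no overlap. The log2 fold change was 2.06 (SE 0.19, limma adjusted p = 2.15e-06), and pairs rose by 2.30 to 6.71 times, least for number 28.

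Markers of macrophages and other leukocytes were set beside Csf1r, since their cells are its main known source. Their summed FPKM in Ad-GFP samples 24 to 29 was 2.78, 6.66, 4.88, 2.49, 1.35, and 5.68. In Ad-h-NR4A2 samples 24 to 29 it was 2.60, 9.78, 5.46, 3.28, 1.58, and 7.58, higher in every pair but number 24. Ad-GFP sample 28 had the lowest sum of that group, 1.35, and the highest Csf1r, 17.1. In Ad-h-NR4A2 samples the sum ranged from 1.58 to 9.78 FPKM while Csf1r lay between 36.8 and 43.4 FPKM. The part of such cells in the Csf1r values was not tested. Cd68 was 0.177 to 0.687 FPKM in Ad-GFP and 0.265 to 0.752 FPKM in Ad-h-NR4A2 samples (limma adjusted p = 0.905), and Cd14 rose from 0.222 ± 0.150 to 1.19 ± 0.587 FPKM (SD, n = 6, limma adjusted p = 0.000493).

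The ligand Csf1 was 15.6, 17.8, and 24.6 FPKM in Ad-GFP and 11.7, 14.3, and 18.6 FPKM in Ad-h-NR4A2 samples. It was lower in all 6 pairs but at a ratio of 0.787, which is under the limit (log2 fold change -0.35, limma adjusted p = 0.0438). The other ligand, Il34, stood at 0.0666 to 0.352 FPKM and 0.0568 to 0.191 FPKM. Csf1r was the 1 gene called of 4 tested among colony-stimulating factors and their receptors.

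Among receptors of the TNF superfamily, 3 of 9 tested were upregulated (33.3%, beside 7.94% of all genes), and all 3 were low. Tnfrsf19, also called TROY (chr15:45061675-45127279), was 0.196, 0.456, and 0.752 FPKM in Ad-GFP and 0.684, 1.20, and 1.35 FPKM in Ad-h-NR4A2 samples, overlapping only through the lowest Ad-h-NR4A2 sample, number 29 (log2 fold change 1.21, SE 0.28, limma adjusted p = 0.00359). Tnfrsf9 (chr5:171587145-171613567), a costimulatory receptor of T cells, was 0.0742, 0.156, and 0.321 FPKM in Ad-GFP and 0.265, 0.330, and 0.747 FPKM in Ad-h-NR4A2 samples (log2 fold change 0.82, SE 0.26, limma adjusted p = 0.0234). Tnfrsf10b (chr15:55161595-55192095), a death receptor for the ligand TRAIL, was 0.474, 0.522, and 0.935 FPKM in Ad-GFP and 0.719, 0.846, and 1.28 FPKM in Ad-h-NR4A2 samples (log2 fold change 0.54, SE 0.17, limma adjusted p = 0.0214).

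All 3 were higher in 6 of 6 pairs, and all 3 had groups that overlapped. Sample 29 was the highest of both groups for Tnfrsf10b, and samples 25 and 29 were the highest of both for Tnfrsf9. Tnfrsf9 was no longer called without Ad-GFP sample 24 or 26 or Ad-h-NR4A2 sample 25 or 29. Tnfrsf10b, at a ratio of 1.51, was no longer called without Ad-GFP sample 24, 25, 26, or 27 or Ad-h-NR4A2 sample 29, on the TPM scale, or after quantile normalization.

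The abundant TNF receptors did not pass both limits. Tnfrsf1a, the main receptor of TNF, was 38.4, 46.3, and 50.6 FPKM in Ad-GFP and 26.3, 30.3, and 36.8 FPKM in Ad-h-NR4A2 samples, with no overlap. Its ratio of means was 0.680 (log2 fold change -0.56, SE 0.09, limma adjusted p = 0.000186), just short of the limit in the downward direction, and it was called without Ad-GFP sample 25 or Ad-h-NR4A2 sample 24 or 28. Tnfrsf12a was 45.8 to 100 FPKM in Ad-GFP and 37.4 to 71.3 FPKM in Ad-h-NR4A2 samples, lower in all 6 pairs (limma adjusted p = 0.0956, and 0.000143 with the replicate block, ratio of means 0.749). Tnfrsf1b, the other TNF receptor, stayed at or below 0.159 FPKM in all samples.

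Most TNF ligands were scarce. Of 3 tested (Tnfsf10, Tnfsf12, and Tnfsf13), none was differentially expressed by limma (beside 15.2% of all genes) or had an unadjusted p below 0.05. The same held for Tnfaip2 and Tnfaip8, the 2 tested of 4 TNF-induced proteins. With the replicate block, Tnfsf12 had a limma adjusted p of 0.0235 and Tnfaip8 of 0.0486. Their ratios of means, 1.20 and 0.875, stayed within the limit, and 59.4% of all genes had a block adjusted p below 0.05. Tnf itself was listed at 0 in 2 Ad-GFP and 2 Ad-h-NR4A2 samples, reached 0.117 and 0.108 FPKM, and came to at most 5 fragments in a sample. When same-numbered samples were paired in a replicate block, 16 genes of the set were called, beside 16.7% of all genes, the added genes being the chemokine receptor Ccr10 and the TNF receptor family member Tnfrsf21 (1.26 ± 0.781 and 2.00 ± 0.593 FPKM, SD, n = 6).

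**Figure D3:**
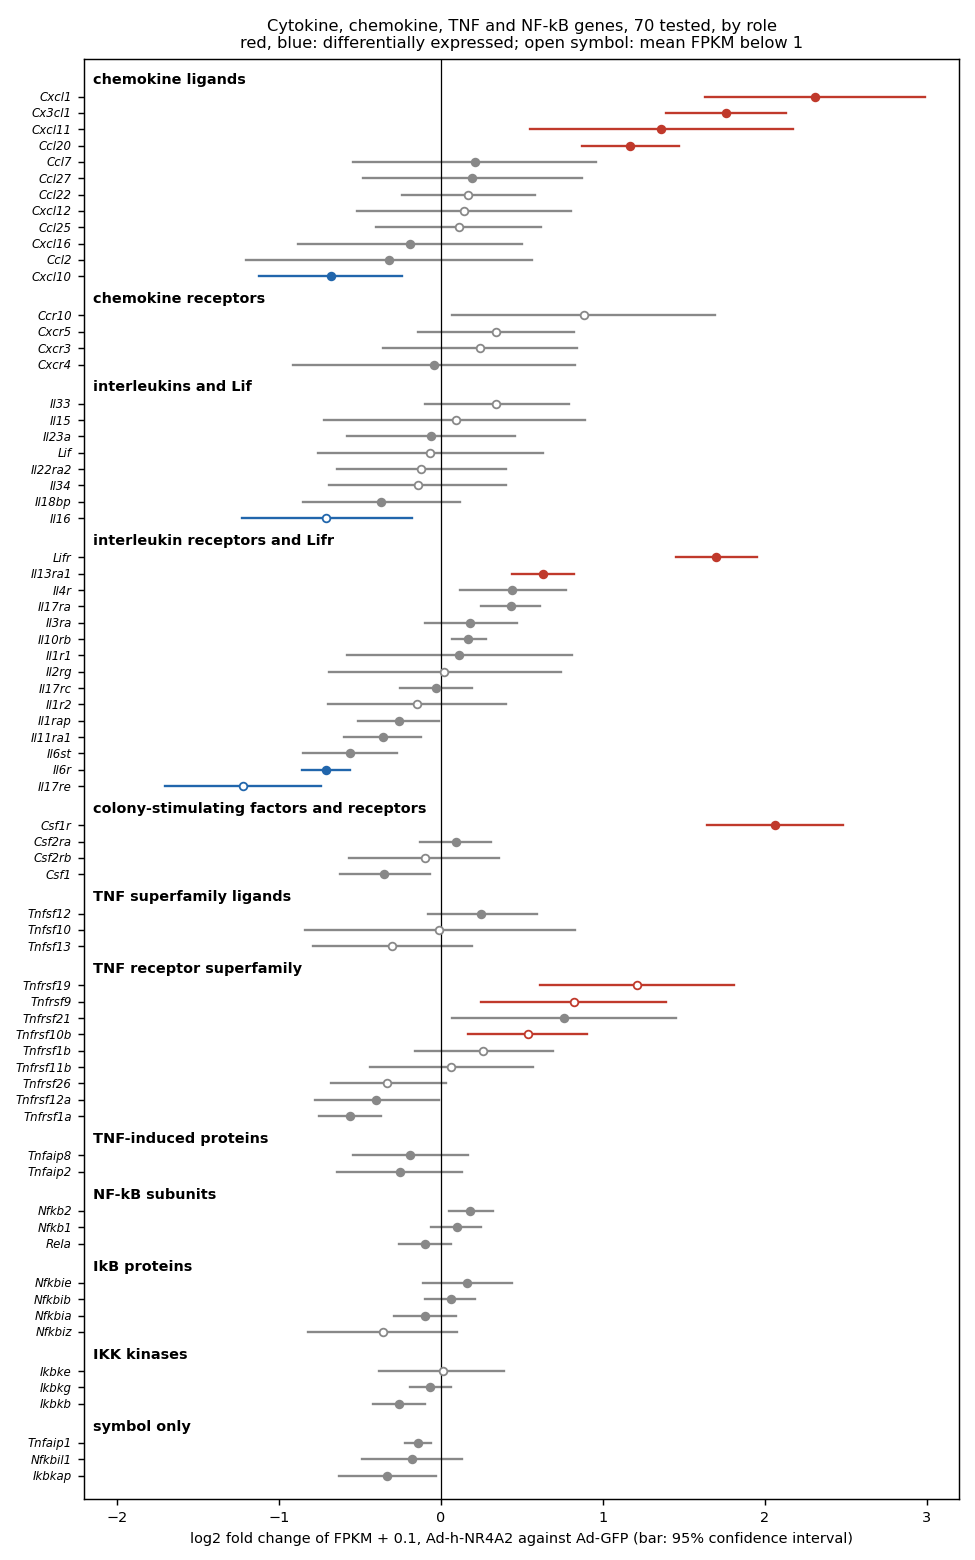
Log2 fold change of FPKM + 0.1, Ad-h-NR4A2 against Ad-GFP, with its 95% confidence interval, for the 70 genes tested, grouped by role; red and blue mark the 10 upregulated and 4 downregulated genes, and open symbols a mean below 1 FPKM. Values range from -1.22 (Il17re) to 2.31 (Cxcl1), and the NF-kB, IkB, and IKK genes lie between -0.36 and 0.18.

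The NF-kB, IkB, and IKK genes taken by symbol held no differentially expressed gene. None of 3 subunits, 4 IkB proteins, and 3 IKK genes passed the limits in limma, beside 15.2% of all genes tested. With the replicate block none did either, beside 16.7% of all genes. With only 10 genes, this cannot be told from those shares. An adjusted p below 0.05 without the limit on the ratio was found for 2 of these 10 genes, beside 40.9% of all genes. These were Nfkb2 and Ikbkb, also the 2 with an unadjusted p below 0.05. With the replicate block 5 of 10 had an adjusted p below 0.05, beside 59.4% of all genes, the added genes being Nfkbia (0.0226), Rela (0.0424), and Nfkbiz (0.0300), with Nfkbia and Rela lower in 6 of 6 pairs. Rel, Relb, and Tnfaip3 are not analysed here. The IkB-like gene Bcl3 lies outside the set by symbol and was downregulated (ratio of means 0.582, limma adjusted p = 0.00101). The IKK kinase gene Chuk, also outside the set, was not called (ratio of means 0.891, limma adjusted p = 0.179).

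The subunits differed little in level between the groups. Nfkb1 was 11.0, 12.3, and 12.7 FPKM in Ad-GFP and 11.3, 13.2, and 14.3 FPKM in Ad-h-NR4A2 samples (log2 fold change 0.10, 95% confidence interval -0.06 to 0.25), and Rela was 22.1, 24.8, and 28.1 and 19.7, 23.7, and 25.6 FPKM (-0.10, interval -0.26 to 0.06). Nfkb2, whose product is processed in the noncanonical pathway, was higher in all 6 pairs, 17.4, 19.2, and 20.0 compared with 19.9, 20.7, and 25.2 FPKM. Its log2 fold change was small at 0.18 (SE 0.06, limma adjusted p = 0.0339, ratio of means 1.14).

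The IkB proteins, which hold NF-kB dimers in the cytoplasm, overlapped between the groups. Nfkbia, itself a rapid target of NF-kB, was 22.1, 26.3, and 30.0 FPKM in Ad-GFP and 20.7, 24.3, and 29.5 FPKM in Ad-h-NR4A2 samples, so that the log2 fold change was -0.10 with an interval of -0.29 to 0.09. Nfkbib (33.4 to 42.7 and 34.6 to 44.6 FPKM) and Nfkbie (2.70 to 4.52 and 3.34 to 4.51 FPKM) also overlapped. Nfkbiz, a nuclear family member, was 0.259 to 0.707 and 0.164 to 0.486 FPKM, lower in 5 of 6 pairs (log2 fold change -0.36, limma adjusted p = 0.194).

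Of the kinases that mark IkB for degradation, Ikbkb was 14.5, 16.5, and 18.1 FPKM in Ad-GFP and 12.0, 13.6, and 15.2 FPKM in Ad-h-NR4A2 samples. It was lower in all 6 pairs at a ratio of 0.833 (log2 fold change -0.26, SE 0.07, limma adjusted p = 0.0121). The regulatory subunit Ikbkg had 10.7 to 12.8 and 10.1 to 11.6 FPKM (-0.07, interval -0.19 to 0.06), and the related kinase Ikbke stayed at or below 0.148 FPKM. The genes Ikbkap, Nfkbil1, and Tnfaip1 belong to the set by symbol only, and of these Tnfaip1 was lower without overlap (51.3 to 55.3 and 45.9 to 50.9 FPKM) at a ratio of 0.909 (limma adjusted p = 0.00817).

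**Figure D4:**
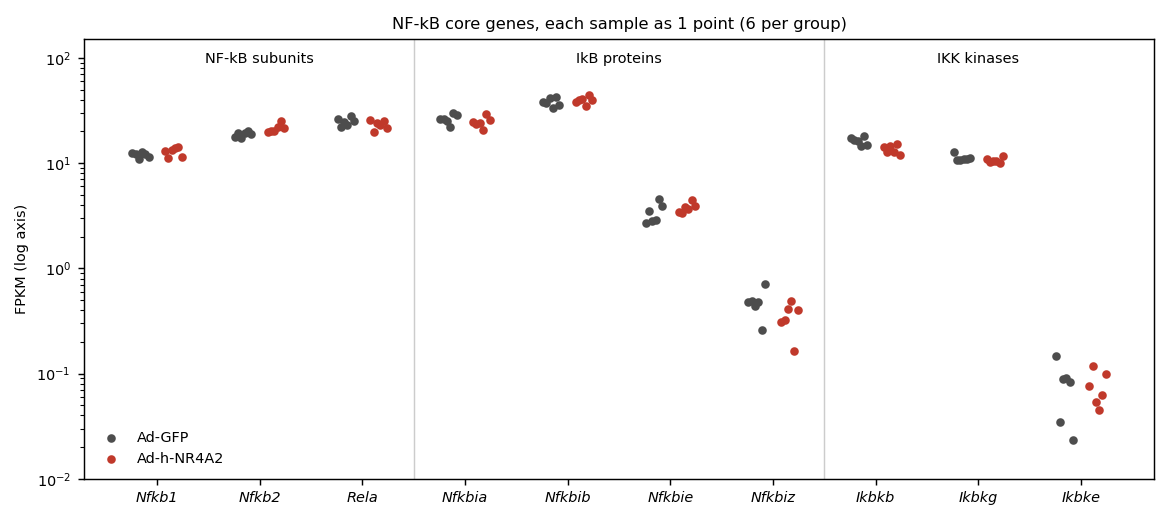
FPKM (log axis) of 3 NF-kB subunits, 4 IkB proteins, and 3 IKK genes, each sample as 1 point, in Ad-GFP (gray) and Ad-h-NR4A2 (red). Points of both groups overlap for all 10 genes, and levels run from 0.0232 FPKM (Ikbke) to 44.6 FPKM (Nfkbib).

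Genes between the receptors and NF-kB, on a list outside the set, were called about as often as all genes, 5 of 33 tested (15.2%). Birc3, a ubiquitin ligase of the TNF receptor complex and a known NF-kB target, went from 3.91 ± 0.411 to 12.3 ± 1.73 FPKM (SD, n = 6, limma adjusted p = 6.06e-08). The adaptor Myd88 rose from 6.95 ± 0.608 to 13.4 ± 2.07 FPKM and Traf6 from 5.30 ± 0.359 to 8.76 ± 1.31 FPKM. Fadd, the adaptor of death receptors, fell from 11.3 ± 1.12 to 7.05 ± 0.553 FPKM, and the IkB-like gene Bcl3 from 3.95 ± 0.625 to 2.30 ± 0.515 FPKM.

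Classical NF-kB target genes outside the set were divided in direction, with 4 of 19 tested upregulated and 3 downregulated. The share was 36.8% in all, beside 15.2% of all genes tested, and the median log2 fold change was 0.01. With the replicate block 9 of 19 were called, beside 16.7% of all genes. The block added Plau, or urokinase (0.392 ± 0.192 to 0.654 ± 0.166 FPKM, SD, n = 6, limma adjusted p = 0.00758), which rose. It also added the complement gene C3 (0.765 ± 0.379 to 0.405 ± 0.164 FPKM, limma adjusted p = 0.00108), which fell. Upregulated without the block were the adhesion molecule Vcam1 (0.726 ± 0.185 to 2.61 ± 0.498 FPKM) and the prostaglandin synthase Ptgs2 (0.118 ± 0.0914 to 0.476 ± 0.124 FPKM). So were the pentraxin Ptx3 (0.0536 ± 0.0292 to 0.481 ± 0.335 FPKM) and the transcription factor Cebpd (6.63 ± 2.54 to 12.9 ± 4.33 FPKM). Tissue factor, F3 (6.82 ± 0.539 to 2.49 ± 0.201 FPKM), and the interferon regulatory factor Irf1 (17.4 ± 1.22 to 11.0 ± 1.19 FPKM) were downregulated.

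Genes listed at 0 in some samples were compared separately, since they cannot enter the main comparison. Of 104 such genes, 27 were at 0 throughout, 25 were above 0 in 1 or 2 samples, and 52 were above 0 in at least 3. A two-sided exact permutation test gave an unadjusted p below 0.05 for 10 of these 52, 6 higher and 4 lower, beside 14.7% of the 2169 genes of the same kind in all, and 3 had groups that did not overlap.

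Of the 8 genes described here, 3 encode chains of the interleukin 10 receptor family. Il20ra, which pairs with Il20rb to bind interleukins 20 and 24, was listed at 0 in Ad-GFP samples 24, 27, 28, and 29, at 0.0560 FPKM in sample 25, and at 0.0240 FPKM in sample 26. In Ad-h-NR4A2 samples 24 to 29 it was 0.365, 0.673, 0.693, 1.01, 0.265, and 0.594 FPKM. The fragments summed to 3 and 163, and the groups did not overlap (exact permutation p = 0.00216, the smallest that 6 against 6 samples allow).

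Il20rb moved the opposite way, with 0.144, 0.170, 0.145, 0.0836, 0.233, and 0.491 FPKM in Ad-GFP samples 24 to 29. In Ad-h-NR4A2 samples it was listed at 0 in samples 24 and 29 and at 0.116, 0.0437, 0.0485, and 0.0410 FPKM in samples 25 to 28 (30 and 6 fragments in sum, exact permutation p = 0.00433). The values of both chains of this receptor thus differed in opposite directions between the groups. Il10ra, the binding chain for interleukin 10, had 1 fragment in all Ad-GFP samples together (0.0323 FPKM in sample 25). It was 0.140, 0.155, 0.0499, 0.111, 0.141, and 0.0790 FPKM in Ad-h-NR4A2 samples 24 to 29 (27 fragments, exact permutation p = 0.00216).

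TNF ligands were found in both directions. Tnfsf15, which acts on T cells, was 0.228, 0.449, 0.230, 0.463, 0.123, and 0.358 FPKM in Ad-GFP samples 24 to 29. In Ad-h-NR4A2 samples it was listed at 0 in samples 24, 27, and 28 and at 0.0610, 0.0693, and 0.0724 FPKM in samples 25, 26, and 29, so that the groups did not overlap (26 and 3 fragments, exact permutation p = 0.00216). Tnfsf4, the OX40 ligand, had 1 fragment in Ad-GFP samples (0.0329 FPKM in sample 25) and 14 in Ad-h-NR4A2 samples, at 0.0286 to 0.0849 FPKM (exact permutation p = 0.00433).

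The interleukin 33 receptor Il1rl1 was above 0 in all Ad-GFP samples, at 0.0220 to 0.147 FPKM, and at or near 0 in 4 Ad-h-NR4A2 samples, with 0.0191 and 0.0359 FPKM in samples 24 and 29 (exact permutation p = 0.00866). Il1rn, the interleukin 1 receptor antagonist, was 0.0209 to 0.0782 FPKM in Ad-GFP samples and at 0 in 4 Ad-h-NR4A2 samples, the other two having 0.0417 and 0.0248 FPKM (12 and 3 fragments, exact permutation p = 0.0152). Ccr7, the lymph node homing receptor, was above 0 in 2 Ad-GFP and 5 Ad-h-NR4A2 samples, at up to 0.104 FPKM (2 and 9 fragments, exact permutation p = 0.0238). At such low numbers, counting error alone is large, and no fold is given.

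**Figure D5:**
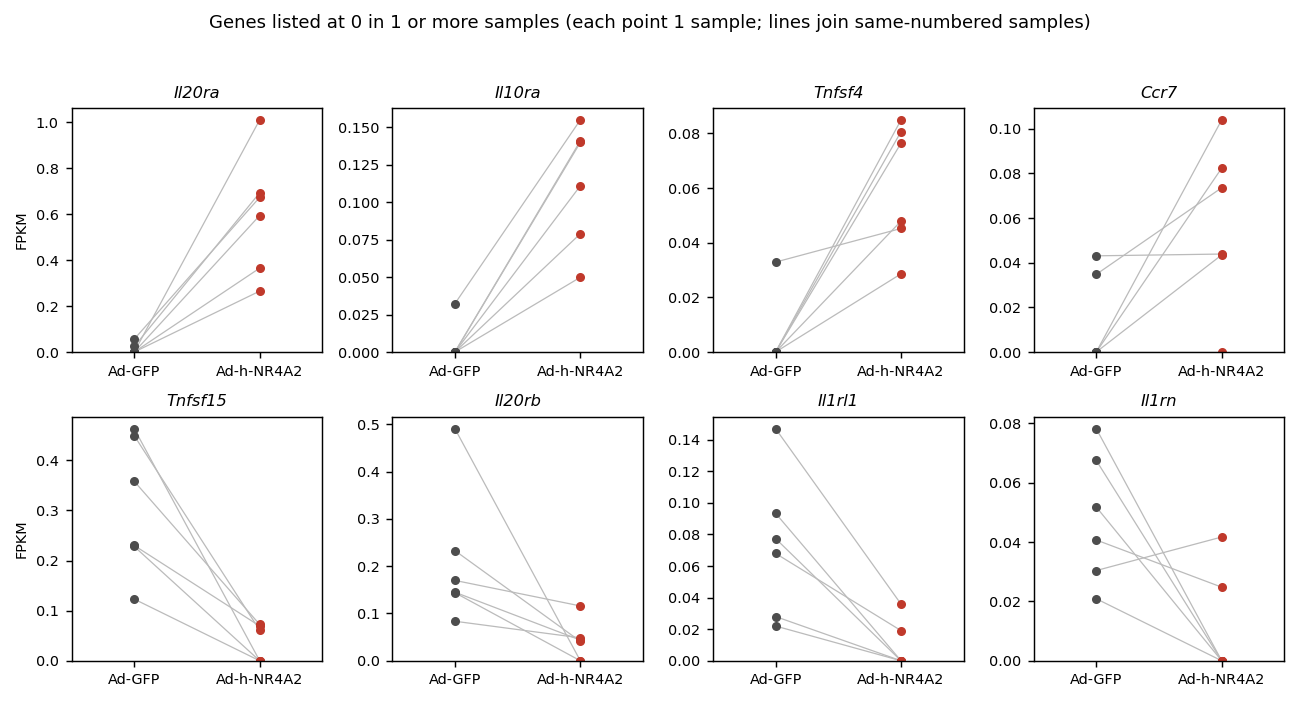
FPKM (linear axis from 0) of 8 genes that are listed at 0 in 1 or more samples, in 6 Ad-GFP (gray) and 6 Ad-h-NR4A2 (red) samples, each point 1 sample, with lines between same-numbered samples. Il20ra, Il10ra, Tnfsf4, and Ccr7 (top) lie higher and Tnfsf15, Il20rb, Il1rl1, and Il1rn (bottom) lower in Ad-h-NR4A2 samples, and all values are at or below 1.01 FPKM.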

How the data were processed

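FPKM per RefSeq transcript were deposited by the authors, who prepared stranded mRNA libraries, pooled all 12 samples in 1 sequencing run, aligned reads to Rn5 with STAR, and quantified with Cufflinks. The deposited transcript length was used only to recover fragment numbers (whole within 0.05 for 99.2% to 99.8% of low values), which are given for genes with 1 transcript of at least 700 nucleotides. Intervals from these numbers would cover counting error only.

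The highest transcript by mean FPKM stood for a gene. Log2(FPKM + 0.1), which understates changes of low genes, was fitted with limma 3.58.1 (lmFit, eBayes with trend) in R 4.3.3 over the 10950 genes above 0 in all 12 samples, two-sided and unpaired, with Benjamini-Hochberg adjustment. Genes listed at 0 in some samples were compared by exact permutation over all 924 ways to divide the samples. Same-numbered samples deviated together from their group means (r from 0.347 to 0.623 in the 6 pairs), and were taken as pairs in the fit with a replicate block. Alternatives were other pseudocounts, filters, scalings, ratio limits, transcript handling, limma without trend, and leaving out each sample. The fit was tested on simulated data.

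The members and lists were chosen with earlier results of these data known. Named were all differentially expressed members, the NF-kB, IkB, and IKK genes, the 8 highest means, 21 preset genes, the 8 genes with zeros and the smallest exact p, and called genes of the lists, of which 1 is not reported here by itself. Figures were drawn with Matplotlib 3.10.9, and tables were made in Python 3.11.15 with SciPy 1.17.1, NumPy 2.4.6, and pandas 2.3.3.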

Additional observations from a re-analysis of the deposited data

Results flagged for a closer look

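In 10 of 104 groups of 6 samples examined, 1 sample lay far from the others, where chance gives about 1 in 20 groups of continuous values, a rate that does not apply to groups holding several zeros. The value is the gap to the nearest sample divided by the whole range of the group. In Ad-GFP sample 29 it was 0.722 for Ccl5 (0.351 FPKM, nearest 0.0974), 0.634 for Il20rb (0.491 FPKM, nearest 0.233), 0.657 for Il6 (0.363 FPKM, nearest 0.125), and 0.683 for Tnfrsf10b (0.935 FPKM, nearest 0.620). Tnfrsf10b was also far from the rest in Ad-h-NR4A2 sample 29 (0.639, 1.28 FPKM, nearest 0.922). Ad-GFP sample 24 was high in Cx3cl1 (0.640, 11.0 FPKM, nearest 8.98) and in Ikbkg (0.792, 12.8 FPKM, nearest 11.1). Ad-h-NR4A2 sample 26 was high in Il16 (0.816, 0.179 FPKM, nearest 0.0562), where the other 5 samples were at most 0.0562 FPKM. Ad-GFP sample 25 was the only one of its group above 0 for Il10ra (1.00, 0.0323 FPKM) and Tnfsf4 (1.00, 0.0329 FPKM), at 1 fragment each.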

How the results depend on the processing

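The set had 14 differentially expressed genes, 10 upregulated and 4 downregulated. Without a filter on low values there were 25 (16 up, 9 down) among 147 genes fitted, with a mean of at least 1 FPKM 9 (2 down) among 44, without a limit on the ratio 24 (10 down), and at a ratio of at least 2 10 (2 down), where Il6r, Il13ra1, Cxcl10, and Tnfrsf10b were lost. Leaving out each sample gave 11 to 16 genes (8 to 11 up, 3 to 5 down). The pairing of same-numbered samples in a replicate block gave 16 genes (12 up, 4 down). Of the 14 genes, 10 were called at the ratio limit of 1.5 in each of the 22 fits in which they could be fitted. The exceptions were Cxcl10, Tnfrsf9, and Il16, described above, and Tnfrsf10b, which the TPM scale and quantile normalization also removed. Of the 70 genes tested, Ccr10, Tnfrsf21, Il6st, and Tnfrsf1a were called in some of these alternatives only, and without the filter on low values genes listed at 0 in some samples were called as well.

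Among the genes named, signs turned for 4 that never passed the test. Their log2 fold changes over the leave-one-out fits ranged from -0.00064 to 0.32 for Cxcl12, -0.093 to 0.11 for Ikbke, -0.064 to 0.30 for Il1r1, and -0.24 to 0.11 for Lif. Cxcl12 had -0.039 with transcripts summed, Ikbke -0.0023 with a pseudocount of 1 and -0.051 with quantile normalization, and Lif 0.00029 with a pseudocount of 1. The cause was not tested. At 18800000 to 28000000 fragments per sample, genes below 1 FPKM rest on few fragments.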
